A study of Mus musculus with 22 samples.

Results

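The genes Cd3e, Cd3d, Cd3g, Cd4, and Cd8a of T lymphocytes, Cd79a, Ms4a1, and Ighm of B lymphocytes, and Ptprc of all nucleated blood cells were measured by RNA-Seq in mouse kidney. They were chosen by gene symbol, and all 9 were present among the 32858 genes of the count table. Kidneys came from 22 male C57Bl6/J mice aged 8 to 10 weeks, 1 library of poly(A) RNA per mouse. There were 5 vehicle mice (which received the DMSO, cremophor, and saline carrier of KW6002), 6 KW6002 mice, 5 cisplatin mice, and 6 mice that received cisplatin plus KW6002. KW6002 (istradefylline), an adenosine receptor antagonist, was injected at 3 mg/kg each day from day -5 to day 7. Cisplatin, a platinum drug that crosslinks DNA, was injected at 3 mg/kg on 6 consecutive days, and kidneys were taken 72 hours after the last dose. The comparisons asked what cisplatin did to lymphocyte transcripts in the kidney, and what KW6002 did to them with and without cisplatin.

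T cells recognize antigen through a receptor whose signals are passed on by the CD3 chains, encoded by Cd3e, Cd3d, and Cd3g, and their CD4 and CD8 coreceptors bind MHC class II and class I. B cells use membrane immunoglobulin, of which Ighm encodes the mu heavy chain, together with the signaling chain CD79A, and carry CD20, the product of Ms4a1. Ptprc encodes CD45, a tyrosine phosphatase on the surface of all leukocytes, macrophages included, and healthy kidney holds many more resident macrophages than lymphocytes. Lymphocytes are also carried through the organ by blood. In whole tissue, fewer cells of a type and less of a transcript per cell cannot be told apart. The methods of the study describe perfusion for kidneys sectioned for immunofluorescence. They mention none for kidneys harvested after cervical dislocation, and do not state outright whether the kidneys used for RNA were perfused.

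Of these genes, 5 have bases upstream of the start sites of both annotations in the RefSeq promoter windows of the GRCm38.p6 build, and these are printed 5′ to 3′ on the strand of the gene because Cd3e, Cd3d, Cd3g, Cd8a, and Cd79a moved in the same direction after cisplatin. Capitals mark the E box CANNTG, the site bound by the E proteins of T and B cell development.
Cd3e, chr9:45009628-45009861, minus strand: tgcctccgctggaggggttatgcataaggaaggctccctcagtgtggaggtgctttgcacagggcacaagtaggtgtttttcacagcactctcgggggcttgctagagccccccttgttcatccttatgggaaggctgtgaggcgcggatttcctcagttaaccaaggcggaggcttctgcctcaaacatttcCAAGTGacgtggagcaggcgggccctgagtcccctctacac
Cd3d, chr9:44981536-44981785, plus strand: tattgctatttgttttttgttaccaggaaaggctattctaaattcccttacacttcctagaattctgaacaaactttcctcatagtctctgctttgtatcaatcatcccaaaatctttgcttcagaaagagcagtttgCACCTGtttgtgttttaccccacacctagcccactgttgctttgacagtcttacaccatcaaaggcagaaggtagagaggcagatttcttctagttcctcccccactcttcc
Cd3g, chr9:44980432-44980681, minus strand: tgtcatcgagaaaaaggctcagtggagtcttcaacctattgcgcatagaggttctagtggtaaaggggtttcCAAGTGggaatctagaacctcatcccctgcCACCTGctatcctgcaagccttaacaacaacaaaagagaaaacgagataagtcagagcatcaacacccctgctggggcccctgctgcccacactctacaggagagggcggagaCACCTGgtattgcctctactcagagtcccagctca
Cd8a, chr6:71373177-71373426, plus strand: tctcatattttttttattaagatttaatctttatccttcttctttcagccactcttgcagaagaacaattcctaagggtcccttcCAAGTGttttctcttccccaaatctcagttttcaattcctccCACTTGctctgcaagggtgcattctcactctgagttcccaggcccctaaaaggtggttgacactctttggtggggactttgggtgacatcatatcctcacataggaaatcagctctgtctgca
Cd79a, chr7:24897247-24897380, plus strand: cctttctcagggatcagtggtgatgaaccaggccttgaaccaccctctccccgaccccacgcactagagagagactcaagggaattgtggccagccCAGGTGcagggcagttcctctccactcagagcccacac
Each of the 5 stretches held at least 1 E box, with 3 in Cd3g and 2 in Cd8a. An E box is common, however, and 66.2% of all 32851 mouse windows of 250 bases held one. The 234 bases before Cd3e compare with 64.0% of windows of that length, and the 134 bases before Cd79a with 45.4%. An ETS-type match (GGAAGT) was found once, in Cd3d, against 19.7% of windows, and a GATA-type match (AGATAA) once, in Cd3g, against 9.99%. Both strands were searched, matches of different motifs did not overlap, and the letters TGTGGT (RUNX-type) and ATGCAAAT (octamer) and the EBF-type motif did not occur in these stretches. The 3 CD3 genes lie together on chromosome 9, where Cd3g and Cd3d are read in opposite directions from starts 1355 bases apart and Cd3e ends 11401 bases beyond the end of Cd3d.

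Libraries held 26471762 to 40510754 counts, with a median of 32721214.5, and the deposited values were whole reads per gene. Levels are given as CPM, read counts scaled to the size of the library after TMM normalization, and fold changes are differences between group means in 1 edgeR quasi-likelihood model of the 22 libraries, with p-values adjusted by the Benjamini-Hochberg method over 17131 tested genes. A gene was called at an adjusted p below 0.05, and SE is the standard error of a log2 fold change. Each p-value sets a difference between group means against the variation between mice of a group, counting error included. The tissue label held, since proximal tubule genes Kap and Slc34a1 stood at 19926 ± 1803 and 7585 ± 500 CPM in vehicle kidneys. Vehicle replicates 1 and 2 and KW6002 replicate 1 stood apart. Their summed CPM over 8 fat markers was 1217, 2154, and 991, against 112 to 538.3 in the other vehicle and KW6002 kidneys. Their summed CPM over 12 macrophage markers was 507, 454, and 535.1, against 125 to 262. Mice of the vehicle and KW6002 groups carry label numbers in the 300s for replicates 1 to 3 and in the 500s for the rest, while all cisplatin and cisplatin plus KW6002 mice are numbered in the 500s. Values for the 16 mice numbered in the 500s are therefore given where they change a result. That subset holds only 2 vehicle and 3 KW6002 mice, and whether a call lost in it comes from the smaller number of mice was not tested.

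Most of these transcripts were scarce. Cd3d did not pass the filter on low counts (a CPM of 0.306, before TMM factors, in at least 5 libraries), so that 8 of 9 genes were tested, and its fold changes come from the same fit run without the filter. Cd3e reached that level in 3 vehicle and 6 KW6002 libraries and in no library of either cisplatin group, and Cd3g did so in 4 vehicle and 5 KW6002 libraries. Cd79a and Ms4a1 likewise passed chiefly through mice without cisplatin, with 2 and 1 cisplatin plus KW6002 libraries at that level and no cisplatin library. Cd8a reached it in 5 vehicle, 6 KW6002, and 5 cisplatin plus KW6002 libraries and in no cisplatin library. Genes that pass a filter through the groups in which they are high are more likely to differ between groups. The number called among the tested genes is therefore a description only. Fold changes for all 9 are given below.

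**Figure D1:**
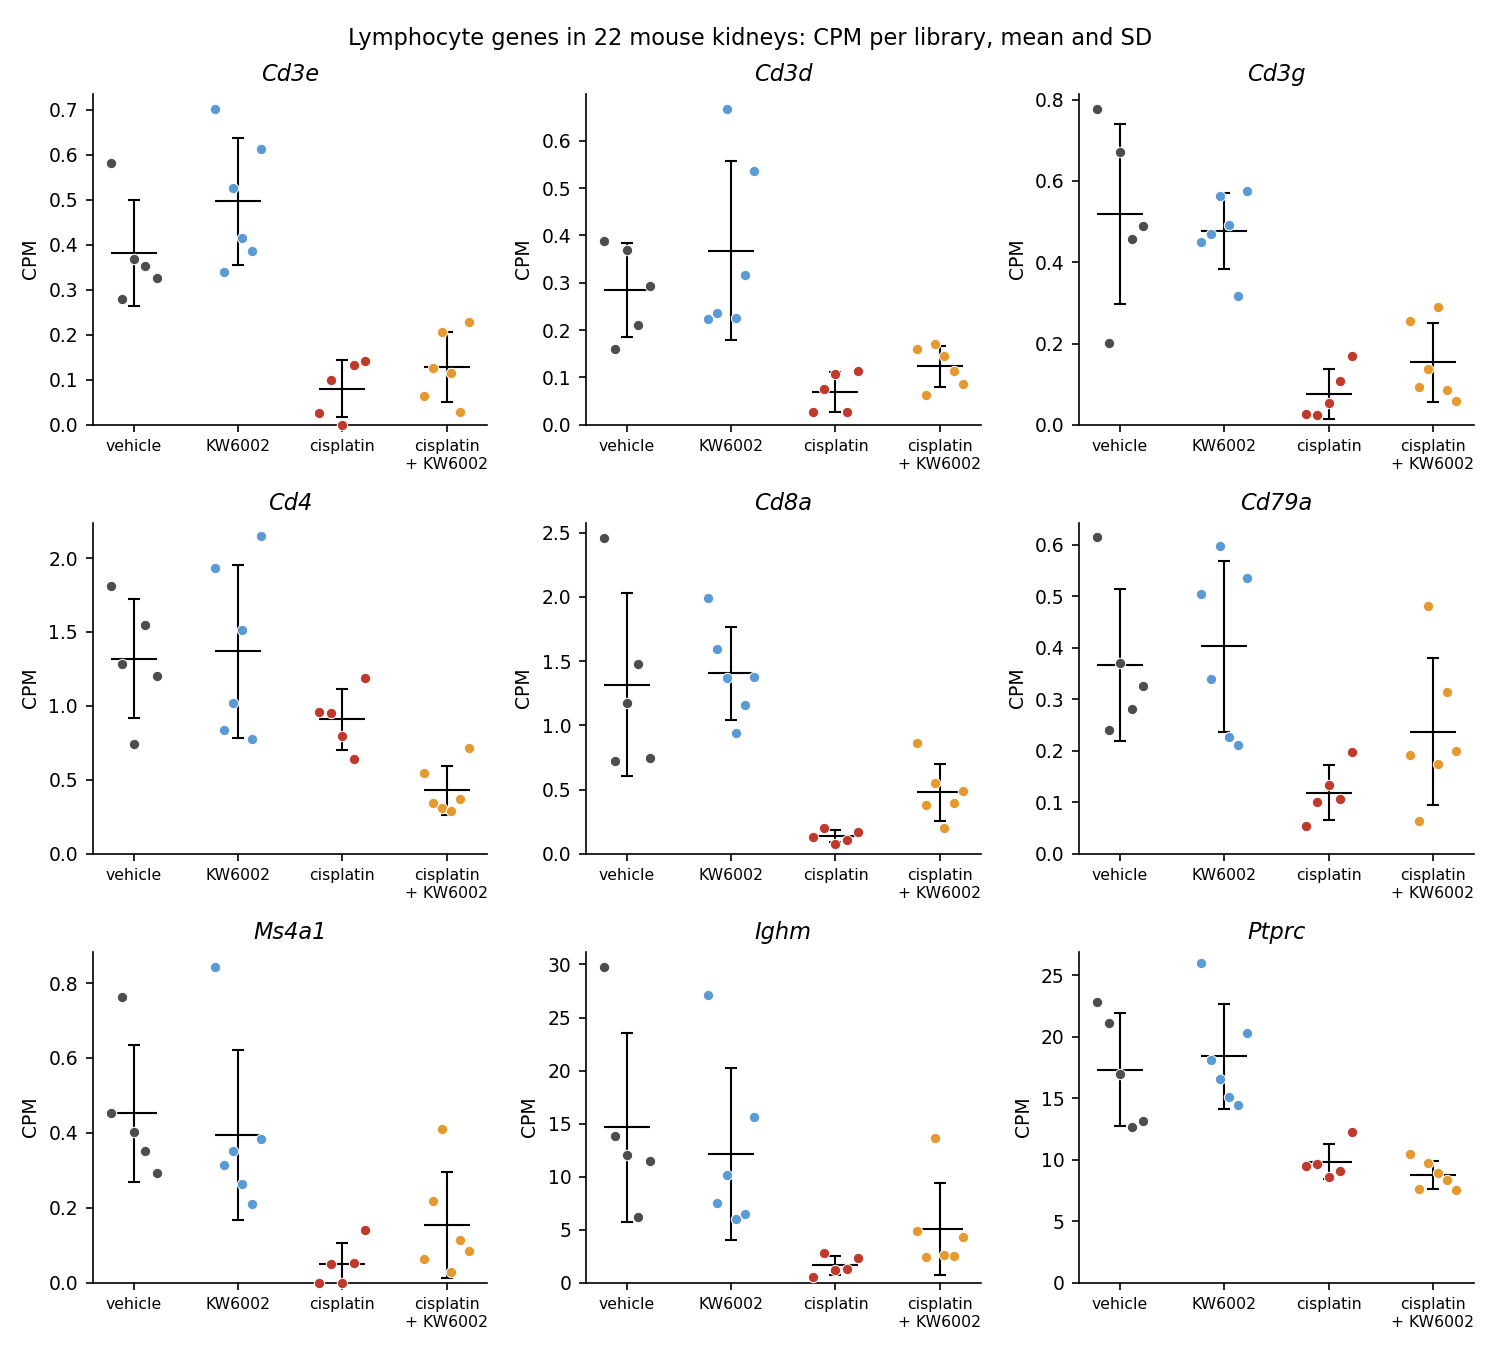
Level of each lymphocyte gene in CPM (vertical axis, linear from 0, a scale of its own per panel) in the 4 treatment groups. Points are the 22 kidneys, horizontal bars the group means, and error bars the SD. In every panel except Cd4 the 5 cisplatin kidneys lie below all 5 vehicle kidneys, and for Cd8a the 6 cisplatin plus KW6002 kidneys lie above all 5 cisplatin kidneys.

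Cisplatin kidneys held less RNA of 8 of the 9 genes than vehicle kidneys, and Cd4 was the gene not called. For 8 of 9 genes every cisplatin library lay below every vehicle library, where 27.9% of all tested genes did so. Among the 8 tested genes 7 were called lower, against 35.9% of all tested genes (6155 lower and 5930 higher). With scaling by library size alone these numbers were 4244 lower and 8157 higher, and the median over all genes was 0.20 rather than -0.01 (log2). By a stricter rule (adjusted p below 0.01 and more than 1 on the log2 scale), 6 of the 8 were lower, against 12.1% of all tested genes.

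The CD3 chains fell 3.98-fold to 6.72-fold. Cd3e (ENSMUSG00000032093, mm10 chromosome 9 from 44998740 to 45009627) encodes the epsilon chain, which pairs with the other CD3 chains. Its counts in vehicle replicates 1 to 5 were 18, 7, 11, 10, and 10, and in cisplatin replicates 1 to 5 they were 1, 4, 0, 5, and 5. The library at 0 allows up to 3 counts, or 0.0799 CPM, by counting error alone. Mean levels were 0.382 ± 0.117 (SD, n = 5) and 0.0805 ± 0.0639 (SD, n = 5) CPM, a log2 fold change of -2.21 (SE 0.47, adjusted p = 0.000235). Gm48719, an antisense gene, shares 135 exon bases with Cd3e and had no count in any library.

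Cd3g (ENSMUSG00000002033, chromosome 9 from 44969572 to 44980431) encodes the gamma chain. It had 24, 5, 20, 13, and 15 counts in the vehicle libraries and 1, 1, 2, 4, and 6 in the cisplatin libraries, so the highest cisplatin library, at 0.170 CPM, came near the lowest vehicle library, at 0.201 CPM. Its log2 fold change was -2.75 (SE 0.45, adjusted p = 1.12e-05). Cd3d (ENSMUSG00000032094, chromosome 9 from 44981786 to 44987339), which encodes the delta chain, had 12, 4, 11, 6, and 9 counts with vehicle and 1, 3, 4, 1, and 4 with cisplatin. Without the filter its log2 fold change was -1.99 (SE 0.47, adjusted p = 0.000848). Summed over the 3 chains, vehicle kidneys held 16 to 54 counts and cisplatin kidneys 3 to 15.

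Of the coreceptor genes Cd8a was called and Cd4 was not. Cd8a (ENSMUSG00000053977, chromosome 6 from 71373427 to 71379173) encodes the CD8 alpha chain of cytotoxic T cells, which some dendritic cells also carry. It had 76, 18, 35, 42, and 23 counts in vehicle libraries and 5, 8, 3, 4, and 6 in cisplatin libraries. The groups lay far apart, with the lowest vehicle library at 0.722 CPM and the highest cisplatin library at 0.201 CPM. The log2 fold change of -3.22 (SE 0.40, adjusted p = 1.79e-07) was the largest fall among the 9 genes. Cd4 (ENSMUSG00000023274, chromosome 6 from 124864692 to 124888221) encodes the coreceptor of helper T cells and is also transcribed by some myeloid cells. It had 56, 32, 22, 44, and 37 counts with vehicle and 36, 38, 30, 24, and 42 with cisplatin, and the groups overlapped. Its log2 fold change was -0.54 (95% interval -1.11 to 0.04, adjusted p = 0.109), and it was called only when vehicle replicate 3, the lowest of its group, was left out (-0.69, adjusted p = 0.0428).

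B cell genes fell as well. Cd79a (ENSMUSG00000003379, chromosome 7 from 24897381 to 24902197) had 19, 6, 11, 8, and 10 counts with vehicle and 2, 4, 5, 4, and 7 with cisplatin, a log2 fold change of -1.62 (SE 0.44, adjusted p = 0.00229). Among the mice numbered in the 500s it was -1.35 (adjusted p = 0.0566) and was not called. Ms4a1 (ENSMUSG00000024673, chromosome 19 from 11249675 to 11266241) had 14, 19, 12, 10, and 9 counts with vehicle and 0, 2, 0, 2, and 5 with cisplatin. A count of 0 in cisplatin replicate 1 or 3 allows up to 0.0799 CPM, which is below the lowest vehicle library, at 0.293 CPM. The Ms4a1 log2 fold change was -3.12 (SE 0.64, adjusted p = 0.000166), and without cisplatin replicate 5 it was -3.90.

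Ighm (ENSMUSG00000076617, chromosome 12 from 113418558 to 113422730), whose counts join membrane and secreted IgM, was the most abundant of the lymphocyte-restricted genes. It had 919, 344, 358, 175, and 352 counts in the vehicle libraries and 21, 110, 45, 49, and 82 in the cisplatin libraries. The spread within groups was wide, from 6.16 to 29.8 CPM with vehicle and from 0.559 to 2.76 CPM with cisplatin, and the groups did not overlap. Its log2 fold change was -3.16 (SE 0.56, adjusted p = 2.88e-05), or 8.96-fold lower. Among the mice numbered in the 500s it was -2.44 (adjusted p = 0.00182), and with the label number series as a covariate it was -2.57 (adjusted p = 0.000534). Vehicle replicate 1 was the highest kidney of its group for Cd3e, Cd3d, Cd3g, Cd4, Cd8a, Cd79a, Ighm, and Ptprc, and it was also 1 of the 3 kidneys high in fat and macrophage RNA.

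Ptprc (ENSMUSG00000026395, chromosome 1 from 138062861 to 138175708) changed least of the called genes. It stood at 22.8, 21.1, 16.9, 12.7, and 13.1 CPM with vehicle and at 9.46, 9.67, 8.63, 9.12, and 12.3 CPM with cisplatin, with means of 17.3 ± 4.58 (SD, n = 5) and 9.83 ± 1.43 (SD, n = 5) CPM. The lowest vehicle library, at 12.7 CPM, lay just above the highest cisplatin library, at 12.3 CPM. The log2 fold change of -0.82 (SE 0.17, adjusted p = 0.000153) was -0.54 (adjusted p = 0.00153) without the 3 kidneys high in fat and macrophage RNA, a comparison chosen after the data had been seen, and -0.40 (adjusted p = 0.0303) among the mice numbered in the 500s. A130071D04Rik, which overlaps Ptprc on the same strand without sharing exon bases, held 53 counts over all 22 libraries.

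**Figure D2:**
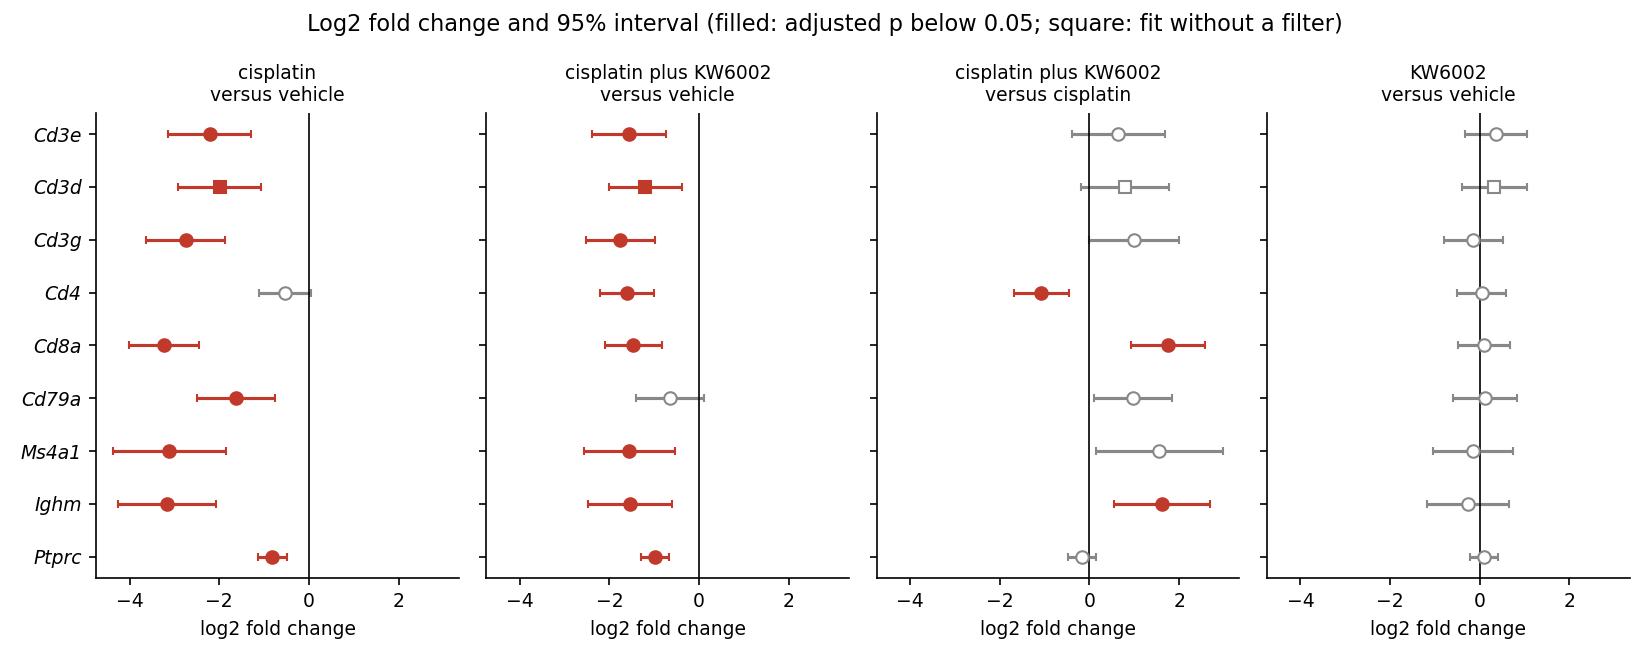
Log2 fold change (horizontal axis, points) with its 95% interval (bars, from the standard error of the fit) for each of the 9 genes in 4 comparisons. Filled symbols mark an adjusted p below 0.05, and the squares for Cd3d come from the fit without a filter. With cisplatin against vehicle only Cd4 is open, and with KW6002 against vehicle every gene is open and every interval includes 0.

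With KW6002 added to cisplatin, log2 fold changes were below 0 for 2 of the 9 genes, Cd4 and Ptprc, and above 0 for the others. The median over the 8 tested genes was 0.98, beside 0.005 over all genes tested, and 5 of the 8 were not called. Among the 8 tested genes, Cd8a and Ighm were higher in cisplatin plus KW6002 kidneys than in cisplatin kidneys, against 28.6% of all tested genes called higher. Cd4 was lower, against 27.2% of all tested genes called lower. Only Cd8a had all of its libraries outside the range of the other group, a pattern that 19.3% of all tested genes showed upward and 18.5% downward.

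Cd8a had 27, 12, 16, 7, 14, and 17 counts in cisplatin plus KW6002 replicates 1 to 6, with a lowest value of 0.203, a median of 0.443, and a highest of 0.863 CPM. The lowest of these was hardly above the highest cisplatin library, at 0.201 CPM. The log2 fold change was 1.75 (SE 0.42, adjusted p = 0.00118), 3.37-fold higher, and the effect of KW6002 was larger with cisplatin than without it by 1.66 on the log2 scale (SE 0.52, adjusted p = 0.0126). That difference remained past the threshold with each library left out in turn and among the mice numbered in the 500s (1.69, adjusted p = 0.0252).

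Ighm had 153, 78, 398, 89, 90, and 151 counts with cisplatin plus KW6002, with 2.45 as the lowest, 3.45 as the median, and 13.7 as the highest CPM. Replicate 3 stood far above the other mice, at 13.7 against a next value of 4.89 CPM, and 3 of the 6 libraries lay above all cisplatin libraries. The log2 fold change was 1.62 (SE 0.55, adjusted p = 0.0153), and without replicate 3 it was 1.04 (adjusted p = 0.0794) and not called. The Ighm effect of KW6002 differed with and without cisplatin by 1.89 (SE 0.72, adjusted p = 0.0376), a call that was lost in 9 of 22 fits with 1 library left out (adjusted p from 0.00917 to 0.103) and among the mice numbered in the 500s (1.54, adjusted p = 0.149).

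Cd4 moved the other way. It had 17, 11, 9, 10, 13, and 25 counts with cisplatin plus KW6002, that is 0.429 ± 0.167 (SD, n = 6) CPM against 0.909 ± 0.204 (SD, n = 5) CPM with cisplatin. Of the 6 libraries, 5 lay below every cisplatin library, and replicate 6, at 0.716 CPM, lay within their range. The log2 fold change was -1.07 (SE 0.31, adjusted p = 0.00544). The KW6002 effect on Cd4 differed with and without cisplatin by -1.12 (SE 0.42, adjusted p = 0.0344), which was not called in 11 of 22 fits with 1 library left out (highest adjusted p 0.0645), without a filter (-1.10, adjusted p = 0.0567), or among the mice numbered in the 500s (-1.16, adjusted p = 0.0702). Thus 3 of the 8 tested genes were called for the difference between KW6002 effects, against 42.7% of all tested genes in either direction.

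For the remaining genes the difference between cisplatin plus KW6002 and cisplatin was not called. Cd3e had 2, 4, 6, 4, 1, and 8 counts with both drugs and a log2 fold change of 0.64 (95% interval -0.40 to 1.68). Cd3g had 8, 3, 4, 10, 3, and 2 counts and a value of 0.99 (-0.02 to 2.00), and Cd3d had 5, 2, 5, 5, 4, and 3 counts and a value of 0.79 (-0.18 to 1.77). Cd79a had 6, 2, 14, 6, 11, and 7 counts and a log2 fold change of 0.98 (95% interval 0.10 to 1.85, adjusted p = 0.0668). Ms4a1 had 2, 7, 12, 1, 4, and 3 counts and a value of 1.56 (0.14 to 2.98, adjusted p = 0.0722). The upper ends of the 95% intervals for these 5 genes ran from 1.68 for Cd3e to 2.98 for Ms4a1.

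Several of these open calls rested on single libraries. Without cisplatin replicate 5, the highest of its group for each of the 9 genes except Cd8a and Ighm, Cd3g (1.47, adjusted p = 0.0300), Cd79a (1.22, adjusted p = 0.0378), and Ms4a1 (2.35, adjusted p = 0.0208) were called higher. Cd79a was also called without cisplatin plus KW6002 replicate 2 (1.17, adjusted p = 0.0226), and Ms4a1 without cisplatin plus KW6002 replicate 4 (1.78, adjusted p = 0.0386) and with DESeq2 (1.64, adjusted p = 0.0475). The difference between KW6002 effects was then called for Cd3g (1.61, adjusted p = 0.0482) and Ms4a1 (adjusted p = 0.0368) without cisplatin replicate 5, and for Ms4a1 also without KW6002 replicate 1 (2.10, adjusted p = 0.0416). Ptprc had 327, 244, 283, 307, 294, and 262 counts with both drugs, a log2 fold change of -0.17 (95% interval -0.48 to 0.15) against cisplatin.

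Compared with vehicle, kidneys given both drugs still held less RNA of most of these genes. The comparison shares its vehicle libraries with that of cisplatin alone. Of the 8 tested genes 7 were called lower, against 29.9% of all tested genes, and 5 at the stricter threshold, against 7.59%. For Cd3e, Cd4, and Ptprc no library given both drugs overlapped the vehicle range, against 18.5% of all tested genes. Cd3g (-1.76, SE 0.39, adjusted p = 0.000522) and Cd4 (-1.61, SE 0.31, adjusted p = 0.000106) fell most, and Cd3e (-1.57), Cd8a (-1.47), and Ptprc (-0.98) were also lower, as was Cd3d in the fit without a filter (-1.20, adjusted p = 0.0280). Among the mice numbered in the 500s 4 of the 8 were called, and Cd3e (-1.39, adjusted p = 0.0642) was not.

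The B cell genes were the least certain in that comparison. Cd79a had a log2 fold change of -0.65 (95% interval -1.40 to 0.11, adjusted p = 0.152), and it was called lower without cisplatin plus KW6002 replicate 3 (-0.95, adjusted p = 0.0391). Ms4a1 was lower in the model of all 22 libraries (-1.56, adjusted p = 0.0127), but not among the mice numbered in the 500s (-1.09, adjusted p = 0.206), with the label number series as a covariate (-1.06, adjusted p = 0.128), or without the 3 kidneys high in fat and macrophage RNA (-1.21, adjusted p = 0.0742). Ighm was lower as well (-1.54, adjusted p = 0.00865), and this call was lost without vehicle replicate 1 (-1.11, adjusted p = 0.0538), without the 3 kidneys (-0.98, adjusted p = 0.0846), with the label number series as a covariate (-0.95, adjusted p = 0.131), and among the mice numbered in the 500s (-0.81, adjusted p = 0.250).

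KW6002 alone changed none of the 8 tested genes, in a comparison in which edgeR called 0.0175% of all tested genes, that is 3 genes. No member had an unadjusted p below 0.05, and DESeq2 called none of them either. KW6002 kidneys held 25, 13, 15, 11, 11, and 16 counts of Cd3e, 8, 9, 19, 6, 9, and 14 of Cd3d, and 16, 18, 16, 13, 9, and 15 of Cd3g, all within or above the vehicle range in CPM. Cd8a had 71, 61, 39, 25, 33, and 36 counts and a log2 fold change of 0.10 (95% interval -0.48 to 0.68). Cd4 had 69, 32, 29, 40, 22, and 56 counts and Cd79a had 18, 13, 17, 6, 6, and 14. The interval was narrowest for Ptprc, at 0.09 (-0.22 to 0.40) with 927, 692, 472, 401, 411, and 530 counts, and widest for Ighm, at -0.27 (-1.18 to 0.65) with 966, 287, 288, 160, 184, and 407 counts. For Ms4a1 (30, 12, 10, 7, 6, and 10 counts) it ran from -1.05 to 0.74. KW6002 replicate 1 was the highest of its group for Cd3e, Cd8a, Ms4a1, Ighm, and Ptprc, and it was 1 of the 3 kidneys high in fat and macrophage RNA.

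Levels per kilobase were taken over the merged exons of all annotated transcripts of a gene. These measured 18313 bases for Ptprc, 4080 for Cd3e, and 1886 for Ighm. Where the merged length exceeds that of the transcript made, the level is understated, so the order of genes holds only for these lengths. In vehicle kidneys Ighm stood at 7.76 ± 4.73 (SD, n = 5) CPM per kilobase and Ptprc at 0.946 ± 0.250, and neither range touched the next. Cd8a (0.362 ± 0.196), Cd4 (0.327 ± 0.0998), Cd79a (0.252 ± 0.101), Cd3g (0.159 ± 0.0678), Cd3d (0.157 ± 0.0543), Cd3e (0.0937 ± 0.0287), and Ms4a1 (0.0732 ± 0.0296) followed, and each of these ranges overlapped that of its neighbor. With cisplatin the ranges of Ighm (0.865 ± 0.474) and Ptprc (0.537 ± 0.0779) overlapped, and Cd4, at 0.225 ± 0.0506, stood next and apart from Cd79a, at 0.0813 ± 0.0365. Cd8a moved from rank 3 with vehicle to rank 6 with cisplatin, at 0.0380 ± 0.0133, and stood at rank 4 with both drugs, at 0.132 ± 0.0610. The 3 CD3 chains stayed beside each other in all 4 groups except for Cd8a between Cd3d and Cd3g with cisplatin.

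Ratios of genes within a kidney asked whether one gene changed more than another. In 15 exact two-sided permutation tests on log2 ratios of CPM plus 0.1, none passed after Benjamini-Hochberg adjustment, whereas 4 passed when 0.5 CPM was added instead. These were Cd8a to Cd3e with cisplatin against vehicle (-0.83, exact test, adjusted p = 0.0397) and with both drugs against cisplatin (0.48, adjusted p = 0.0487), Cd4 to Cd3e with both drugs against cisplatin (-0.72, adjusted p = 0.0397), and Cd79a to Ptprc with both drugs against vehicle (0.67, adjusted p = 0.0397). In kidneys given cisplatin, with or without KW6002, the highest Cd3e and Cd79a values were 0.229 and 0.480 CPM, below the 0.5 CPM added. These 4 ratios therefore followed mainly the other gene and do not decide which gene changed more. With 0.1 CPM added, the ratio of Cd8a to Cd3e was 1.45 ± 0.405 (SD, n = 5) on the log2 scale with vehicle and 0.46 ± 0.457 (SD, n = 5) with cisplatin, a difference of -0.99 (exact p = 0.00794, the smallest that 5 against 5 allows, adjusted p = 0.0974). The ratio of Cd4 to Cd3e was 1.53 ± 0.422 with vehicle, 2.54 ± 0.606 with cisplatin, and 1.23 ± 0.606 (n = 6) with both drugs. It was 1.01 higher with cisplatin than with vehicle (exact p = 0.0238, adjusted p = 0.119) and differed by -1.31 between both drugs and cisplatin (exact p = 0.0130, adjusted p = 0.0974). Directions of the ratios to Ptprc depended on the pseudocount and are given with the other settings.

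Mouse-to-mouse deviations from the group means were compared for 8 pairs of genes. Over 22 kidneys Cd79a deviated together with Ighm (Pearson r = 0.71, permutation p = 0.00101, adjusted p = 0.00404, Spearman rho = 0.69, permutation p = 0.00164, adjusted p = 0.00656), and r was 0.64 without the 2 kidneys farthest out in Cd79a. Within the vehicle and KW6002 groups r was 0.75 (adjusted p = 0.0307), and within the cisplatin and cisplatin plus KW6002 groups it was 0.68 (adjusted p = 0.150). Ptprc deviated together with C1qa, the macrophage complement gene (r = 0.91, permutation p = 2.0e-05 with 100000 resamples, adjusted p = 0.00016). For this pair rho was 0.80 (permutation p = 0.00029, adjusted p = 0.00232), and r was 0.85 without the 2 kidneys farthest out in Ptprc. It was 0.93 (adjusted p = 0.00328) without cisplatin and 0.83 (adjusted p = 0.0729) with cisplatin, and 0.83 among the mice numbered in the 500s.

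The other 6 pairs did not pass over all kidneys. Cd3e had r = 0.31 with Ptprc, 0.28 with Cd3g, 0.35 with Cd8a, 0.32 with Cd4, and 0.34 with Cd79a, and Cd79a had r = 0.39 with Ms4a1. Within the vehicle and KW6002 groups Cd3e had r = 0.83 with Cd79a and 0.71 with Cd8a (adjusted p = 0.0307 for both by permutation), against 0.14 and 0.19 within the cisplatin groups, where the counts of Cd3e were 0 to 8. The difference between those values was not tested.

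**Figure D3:**
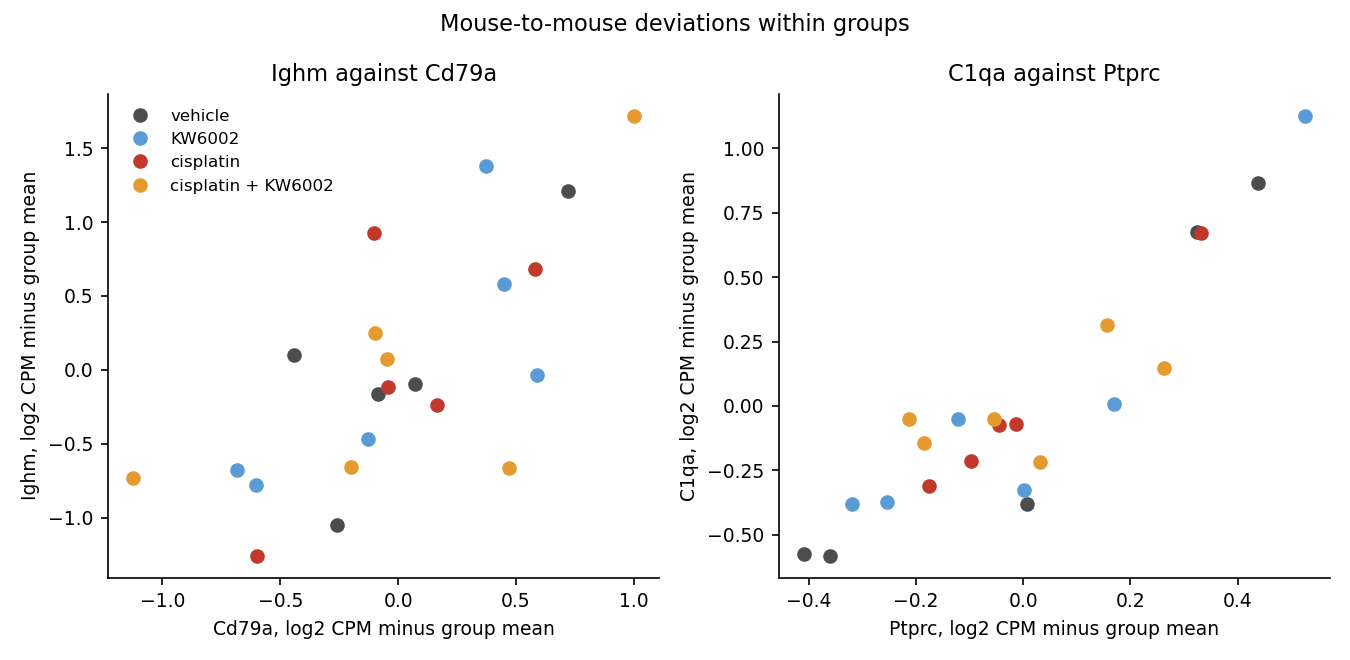
Deviation of each kidney from its group mean in log2 CPM, Ighm against Cd79a (left) and C1qa against Ptprc (right), with 1 point for each of 22 kidneys in the color of its group. Kidneys high in Cd79a tend to be high in Ighm (r = 0.71), and those high in Ptprc are high in C1qa (r = 0.91).

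Among 14105 other genes with a mean CPM of at least 1, the 5 whose deviations followed Ptprc most closely over 22 kidneys were Myo1f (r = 0.97), Nckap1l (0.95), Tyrobp (0.94), Ctss (0.94), and C1qb (0.94), of which Tyrobp, Ctss, and C1qb are known for high expression in macrophages. For Cd3e they were Cnpy2 (0.79), Cradd (0.75), Fam3a (0.74), Ndufb3 (0.72), and Shmt2 (0.72), and for Cd79a they were Ubb (0.75), Card9 (0.74), Akna (0.74), Arhgef2 (0.73), and Pkn3 (0.72). With Cd3e at 0 to 25 counts and Cd79a at 2 to 19 counts per library, these last values are a description of sparse counts.

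Counts called in the lists below are to be read beside the shares over all tested genes. With cisplatin 35.9% were lower (6155 lower and 5930 higher of 17131). With KW6002 added to cisplatin 28.6% were higher and 27.2% lower, and with both drugs against vehicle 29.9% were lower. Other T cell genes were read from a list of 28, of which 18 were tested. After cisplatin 12 were lower and 3 higher, with a median log2 fold change of -1.36 beside -0.01 over all genes tested. The fit without a filter, which covers all 28, called 18 lower and 3 higher with a median of -1.40. In that fit 6610 of all 32858 genes were lower and 6242 higher. The fall included Cd2, an adhesion receptor of T and NK cells (-3.42, adjusted p = 6.35e-06), Trac, the constant region of the T cell receptor alpha chain (1.67 ± 0.721 to 0.435 ± 0.138 CPM, -1.94), Lat (-1.53), Cd247, the CD3 zeta chain (-1.52), and Skap1 (-1.34). The most abundant genes of the list were Ets1 (42.3 ± 2.76 to 61.1 ± 5.62 CPM, adjusted p = 5.01e-08), Bcl11b (16.2 ± 3.77 to 4.10 ± 0.678 CPM, adjusted p = 4.78e-10), and Thy1 (1.85 ± 1.11 and 2.48 ± 0.838 CPM, not called). The 3 that rose were Ets1, Lck, and Tcf7, transcription factors and a kinase, and which cells this RNA came from was not tested.

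With KW6002 added to cisplatin 3 genes of that T cell list were higher and 4 lower, against 28.6% and 27.2% of all tested genes. The median was 0.17, and 5 were higher without cisplatin plus KW6002 replicate 4. Trac rose 1.80 on the log2 scale (to 1.52 ± 0.653 CPM, adjusted p = 0.000129), Cd2 rose 1.93 (adjusted p = 0.0102), and Skap1 rose 0.74 (adjusted p = 0.0293). Ets1, Lck, Tcf7, and Thy1 were the 4 that fell. Against vehicle, 8 were lower and 1 higher with both drugs. Leaving out 1 library gave 7 to 13 lower, with 13 without vehicle replicate 5 or without cisplatin replicate 1, 3, or 5. Of 12 genes of T cell receptor signaling, 10 were tested, and 5 were lower and none higher with cisplatin (median -0.36). The 3 most abundant, Itpkb, Fyn, and Nfatc2, were not called, with log2 fold changes of -0.24, 0.09, and -0.01. KW6002 added to cisplatin gave 2 higher and 2 lower, each going to 1 with any of several libraries left out. Both drugs against vehicle gave 6 lower, or 3 without vehicle replicate 1 or 2.

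Among 24 other B cell genes 17 were tested, and 11 were lower and 1 higher with cisplatin (median -1.08). The fit without a filter called 14 lower and 1 higher, where 6610 of all 32858 genes were lower and 6242 higher. Ighd, the IgD heavy chain of mature B cells, went from 1.05 ± 0.306 to 0.151 ± 0.0751 CPM (-2.78, adjusted p = 1.45e-07), Igkc, the kappa light chain, had -2.24 (adjusted p = 0.000167), and Pax5, a factor of B cell identity, had -1.79 (adjusted p = 0.00669). The 3 most abundant were Blnk (15.3 ± 2.31 to 32.3 ± 2.86 CPM, the gene that rose), Bach2 (9.67 ± 0.681 to 4.57 ± 0.699 CPM, lower), and Cd72 (-0.63, adjusted p = 0.00789). Cd79b, the partner of Cd79a in the B cell receptor, was at 0.874 ± 0.142 and 0.842 ± 0.0881 CPM and was not called (-0.06, adjusted p = 0.804). KW6002 added to cisplatin raised Ighd (1.71, adjusted p = 0.000242), Igkc (1.09, adjusted p = 0.0446), and Cr2 (0.57, adjusted p = 0.0434) and lowered 2. Only 1 was higher without cisplatin replicate 3 or 4 or cisplatin plus KW6002 replicate 1 or 3, and 1 was lower without cisplatin replicate 3 or 4 or cisplatin plus KW6002 replicate 2 or 6. Against vehicle 12 were lower and 1 higher with both drugs. Leaving out 1 library gave 5 to 16 lower, with 5 without vehicle replicate 1.

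Of 10 plasma cell genes 6 were tested, and with cisplatin 3 were lower and 2 higher, with a median of -0.75. Over all 10 in the fit without a filter the median was -0.91. Sdc1, also an epithelial proteoglycan, rose from 12.2 ± 1.95 to 69.0 ± 5.65 CPM, while Igha, the IgA heavy chain (4.02 ± 1.51 to 2.14 ± 0.701 CPM, adjusted p = 0.0304), and Prdm1 (3.85 ± 0.912 to 0.941 ± 0.117 CPM) fell. Igha rose when KW6002 was added to cisplatin (1.03, adjusted p = 0.0163), where 1 of the 6 was higher and 2 were lower. None was higher without cisplatin replicate 1, and 1 was lower without cisplatin replicate 2, 3, or 4 or cisplatin plus KW6002 replicate 1, 4, or 5. Of 14 genes of NK and cytotoxic cells 8 were tested, and 6 were lower and 1 higher with cisplatin (median -1.55), with none higher without vehicle replicate 3. The 3 most abundant were Il2rb (-1.51, adjusted p = 0.000103), Klrk1 (-2.14, adjusted p = 0.000587), and Ccl5 (-0.62, adjusted p = 0.0768). With KW6002 added to cisplatin 4 were higher and none lower (median 0.85), and Il2rb (0.83), Klrk1 (1.22), and Ccl5 (0.78) were among the 4. Leaving out 1 library gave 1 to 5 higher, with 1 without cisplatin replicate 2 and 2 without cisplatin replicate 1 or cisplatin plus KW6002 replicate 6, and 0 to 1 lower. The remaining gene, Gzma, named after its values were seen, encodes a granule protease and rose most (0.0276 ± 0.0395 to 0.318 ± 0.146 CPM, 3.40, adjusted p = 0.000304).

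Other leukocyte lists were read beside these, and differences between lists were not tested. Of 14 pan-leukocyte genes tested 2 were lower and 1 higher with cisplatin, with a median of -0.12. There were 4 lower without vehicle replicate 5 or cisplatin replicate 5 and 1 lower without vehicle replicate 1, and none was higher without vehicle replicate 4 or 5 or cisplatin replicate 5. Laptm5 (17.6 ± 7.13 and 18.7 ± 3.07 CPM) and Coro1a (10.2 ± 3.19 and 11.5 ± 2.46 CPM) were not called, and Cytip fell (20.8 ± 3.32 to 12.6 ± 1.56 CPM). Of 12 macrophage genes 2 were higher and 1 lower (median 0.24). Without vehicle replicate 1, 4 were higher, and the number lower was 0 without vehicle replicate 1 or 2 or cisplatin replicate 2, 3, or 4 and 2 without KW6002 replicate 1. Lyz2, Mpeg1, and C1qb were not called, with log2 fold changes of -0.36, -0.39, and 0.19. Of 8 dendritic cell genes tested 5 were lower (median -0.94, or -1.12 without a filter), with Zbtb46 (0.03), Ccr2 (-0.33), and Itgax (-0.22) not called. Of 8 neutrophil genes tested 4 were higher and 1 lower (median 0.32), the latter call being lost with any of 13 libraries left out, and S100a9, Csf3r, and S100a8 were not called, at -0.53, -0.24, and -0.30.

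**Figure D4:**
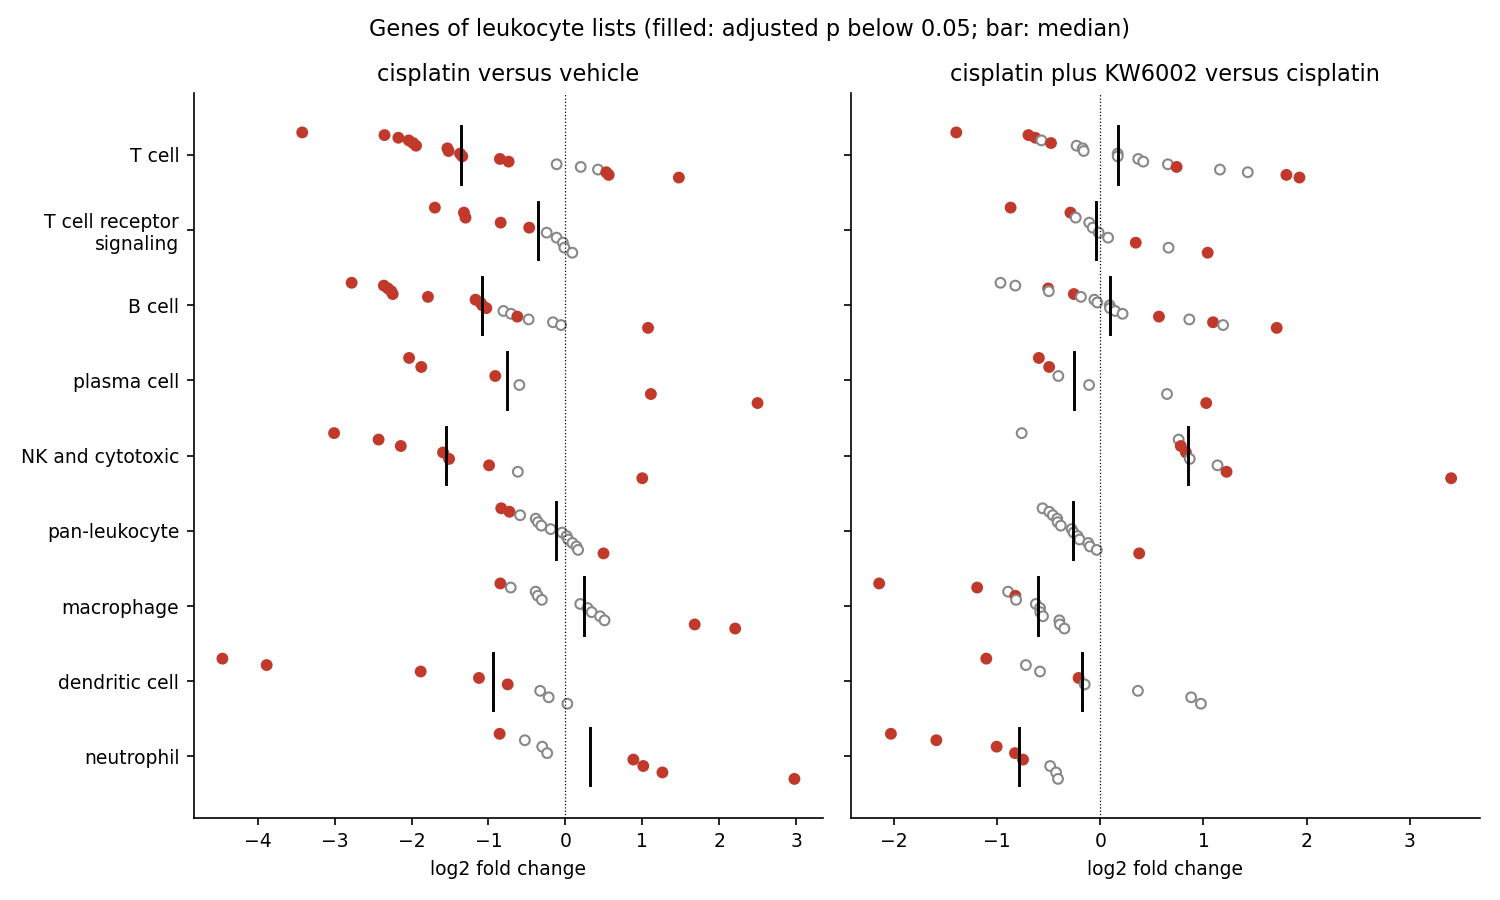
Log2 fold change (horizontal axis) of each tested gene of 9 leukocyte lists, for cisplatin against vehicle (left) and cisplatin plus KW6002 against cisplatin (right). Filled points have an adjusted p below 0.05 and black bars are list medians. With cisplatin the medians lie at -1.36 for T cell, -1.08 for B cell, and -1.55 for NK and cytotoxic genes, and at -0.94 for dendritic cell, -0.12 for pan-leukocyte, and 0.24 for macrophage genes.

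Markers of other cells moved with these results. Summed over 7 red cell genes, vehicle kidneys held 120 to 468 CPM and cisplatin kidneys 50.1 to 64.7 CPM. The hemoglobin genes Hbb-bs (116 ± 89.0 to 0.0795 ± 0.0352 CPM) and Hba-a1 (30.8 ± 22.5 to 0.0217 ± 0.0234 CPM) were nearly absent from cisplatin kidneys and from kidneys given both drugs (0.154 ± 0.0925 and 0.0571 ± 0.0469 CPM), whereas Bpgm, an enzyme gene that other cells also use, was at 52.8 ± 2.69 and 55.7 ± 5.09 CPM. Of these genes 6 of 7 were lower with cisplatin and 1 was higher when KW6002 was added, or 2 without vehicle replicate 2 or 5, KW6002 replicate 2, or cisplatin replicate 5. The part of red cell RNA, blood content, or both in the lymphocyte values was not tested.

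Fat markers summed to 248 to 2154 CPM with vehicle, 476 to 950 with cisplatin, and 45.4 to 583 with both drugs, and macrophage markers to 146 to 507, 277 to 422, and 144 to 266 CPM. Of 8 fat markers 2 were lower with cisplatin, against 35.9% of all tested genes, and 5 when KW6002 was added, against 27.2%. Among these 5 was Fabp4 (284 ± 98.2 to 72.7 ± 33.5 CPM, adjusted p = 0.000293), while Car3 and Cfd were not called when KW6002 was added. The number lower with cisplatin was 0 without vehicle replicate 2 and 1 without vehicle replicate 1 or cisplatin replicate 1, 2, or 5. Of the macrophage markers 3 were lower and none higher when KW6002 was added, and 7 were lower without KW6002 replicate 1. Cd4 and Ptprc are transcribed by myeloid cells too, and the part of these markers in their values was not tested. The 3 kidneys high in fat and macrophage RNA are vehicle and KW6002 kidneys, so their omission removes no kidney from the comparison of both drugs with cisplatin. It could act there only through the shared scaling and spread. Without them the log2 fold changes were -1.07 for Cd4 (adjusted p = 0.00553), 1.76 for Cd8a (adjusted p = 0.000293), and 1.62 for Ighm (adjusted p = 0.00538). This omission cannot show how fat and macrophage RNA of the cisplatin kidneys enters these values.

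Of 14 genes that attract lymphocytes or keep them alive, all tested, 8 were higher and 4 lower with cisplatin (median 0.62), and 2 were lower without vehicle replicate 1 or 4 or cisplatin replicate 1, 2, or 4. The 3 most abundant were Cxcl12 (163 ± 32.4 and 155 ± 28.9 CPM, not called), Icam1 (25.8 ± 6.93 to 87.6 ± 6.16 CPM, adjusted p = 1.83e-10), and Cxcl16 (45.2 ± 4.98 to 63.5 ± 6.43 CPM, adjusted p = 1.39e-06). Chosen after their values were seen, Il7, the T cell survival cytokine, rose from 1.07 ± 0.365 to 4.61 ± 1.42 CPM, Tnfsf13b, the B cell survival factor BAFF, rose from 1.79 ± 0.368 to 7.39 ± 1.14 CPM, and Cxcl9, an attractant of activated T cells, fell from 2.09 ± 0.727 to 0.354 ± 0.152 CPM. When KW6002 was added 2 of the 14 were higher and 2 lower, against 28.6% and 27.2% of all tested genes. Il7 (-1.31) and Tnfsf13b (-0.82) were the 2 that fell.

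Nephron genes changed as well. All 8 proximal tubule genes fell with cisplatin (median -2.92) and 7 rose when KW6002 was added, Kap (-5.10), Slc34a1 (-5.04), and Slc27a2 (-1.20) being the most abundant. All 5 genes of the thick ascending limb and distal tubule fell with cisplatin, with Umod at -1.53, Slc12a1 at -1.60, and Slc12a3 at -4.59, and 4 rose when KW6002 was added. Of 4 collecting duct genes 2 rose and 1 fell with cisplatin, with Aqp2 at 1.41, Atp6v1g3 at -0.12, and Slc4a1 at -2.91. CPM are shares of a library, so that changes of such abundant genes enter the scale of all others, and the TMM factors used here are meant to take this out. None of the genes on any of these lists was called with KW6002 alone, and 1 collecting duct gene was called lower without vehicle replicate 3.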

How the data were processed

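Poly(A) RNA of 22 mouse kidneys was sequenced. The authors deposited whole-number read counts per gene, and the submitters' processing notes name STAR, HTSeq 0.6.1p1, and the mm10 build. The strand setting of the counting is not given in the sources used here. A further 66 unnamed columns held no values and were not used. Counts were analyzed as deposited with edgeR 4.0.16 in R 4.3.3 (limma 3.58.1): TMM factors, filterByExpr by group (at least 10 counts, 15 in total), a mean per group, and quasi-likelihood F tests, whose p-values were adjusted (Benjamini-Hochberg) over 17131 genes that held 99.9% of all counts. SE was the log2 fold change divided by the square root of F, and 95% intervals were normal. Intervals and limits for a count of 0 (3 counts) cover counting error or spread between mice only.

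Symbols and exon lengths came from GENCODE M21 and promoter windows from RefSeq (GRCm38.p6). Deviations from group means used log2 CPM with a prior count of 2, and ratios and relations used permutation tests (Python 3.11.15, scipy 1.17.1). All 9 genes were named, with the 3 most abundant genes of each of 15 marker lists, called T and B cell list genes, and the 5 genes most like Cd3e, Cd79a, and Ptprc. Members and lists were chosen with earlier results of these data known. Alternatives were DESeq2 1.42.0, other scaling and filters, only the groups compared, a replicate block, the label number series as covariate or restricted to the 500s, and omission of each library.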

Additional observations from a re-analysis of the deposited data

Results flagged for a closer look

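In 36 groups (9 genes in 4 treatment groups), 3 libraries lay far from the rest of their group by Dixon's criterion, which flags about 1 in 20 groups by chance. Ms4a1 was at 0.842 CPM in KW6002 replicate 1, where the next value was 0.383 CPM. Ighm was at 13.7 CPM in cisplatin plus KW6002 replicate 3, where the next value was 4.89 CPM. Ptprc was at 12.3 CPM in cisplatin replicate 5, where the next value was 9.67 CPM.

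The effect of KW6002 differed between mice with and without cisplatin for 3 of the 8 tested genes in the edgeR test of that difference, against 42.7% of all tested genes. The difference was 1.66 on the log2 scale for Cd8a (adjusted p = 0.0126), 1.89 for Ighm (adjusted p = 0.0376), and -1.12 for Cd4 (adjusted p = 0.0344). With 1 library left out at a time, the call for Cd8a was kept in all 22 fits, that for Cd4 was lost in 11 (adjusted p from 0.0134 to 0.0645), and that for Ighm in 9 (adjusted p from 0.00917 to 0.103). Among the mice numbered in the 500s Cd8a was called (1.69, adjusted p = 0.0252), and Cd4 (-1.16, adjusted p = 0.0702) and Ighm (1.54, adjusted p = 0.149) were not.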

How the results depend on the processing

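Low counts limit these values, and 1 to 3 libraries decide several calls. Of the 8 tested genes the model of all libraries called 7, 3, 7, 0, and 3 for cisplatin against vehicle, both drugs against cisplatin, both drugs against vehicle, KW6002 against vehicle, and the difference between KW6002 effects. With the replicate number as a block the counts were the same, 7, 3, 7, 0, and 3, and Cd4 with KW6002 alone went to -0.13. Deviations of same-numbered samples correlated above 0.1 in 7 of 31 pairs (-0.175 to 0.405, median 0.00846), among them 4 of the 5 of vehicle with KW6002. Since this did not hold for every pair, and the labels tie no number to a shared mouse or batch, the numbers were not taken as pairs. Without the 3 kidneys high in fat and macrophage RNA, an omission chosen after seeing the data, they were 8, 3, 6, 0, and 3, with all 9 genes tested. With at least 10 counts in every library, which leaves 2 genes, they were 2, 1, 2, 0, and 1. Fitting only the groups compared called 3 with cisplatin, 4 genes being tested. Among mice numbered in the 500s, 4 were called for both drugs against vehicle and 1 for the difference between KW6002 effects, and Ighm with KW6002 alone went to 0.083. The stricter rule called 0 for that difference. Scaling by library size alone moved the median of all genes to 0.20 with cisplatin and 0.16 with both drugs against vehicle, and turned 5108 higher and 5114 lower genes into 7394 and 3525 for the latter, 4900 and 4664 into 4091 and 5435 for both drugs against cisplatin, and 3902 and 3410 into 3041 and 4107 for the difference between KW6002 effects, with the members' counts of calls within 1.5 times. The cause of these changes was not tested.

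Leaving out 1 library at a time gave 7 to 8 called genes with cisplatin, 2 to 6 for both drugs against cisplatin, 6 to 8 for both drugs against vehicle, 0 with KW6002 alone, and 1 to 4 for the difference between KW6002 effects. Signs changed where values were near 0. With KW6002 alone the ranges were -0.33 to 0.047 for Cd3g, -0.12 to 0.20 for Cd4, -0.054 to 0.45 for Cd8a, -0.017 to 0.39 for Cd79a, -0.55 to 0.10 for Ms4a1, -0.68 to 0.17 for Ighm, and -0.035 to 0.21 for Ptprc, and for the Cd3e difference between KW6002 effects it was -0.031 to 0.55.

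Ratios depended on the pseudocount. With 0.5 CPM, Cd3e to Ptprc was 0.16 with cisplatin and 0.43 with both drugs against vehicle, Cd79a to Ptprc was 0.28 and 0.67, Cd8a to Cd3e was -0.83 with cisplatin and 0.48 for both drugs against cisplatin, and Cd4 to Cd3e was -0.72 in the latter. Of these, 4 passed the adjusted exact permutation test that none passed with 0.1 CPM, namely Cd79a to Ptprc with both drugs against vehicle, Cd8a to Cd3e in both comparisons, and Cd4 to Cd3e (adjusted p = 0.0397, or 0.0487 for Cd8a to Cd3e with both drugs against cisplatin). The 0.5 CPM added lies above every Cd3e and Cd79a value of the kidneys given cisplatin, so these ratios followed mainly the other gene. With 0.01 CPM, Cd4 to Cd3e was 0.092 and Cd8a to Cd3e 0.29 for both drugs against vehicle, and Cd3e to Cd79a was 0.10 for both drugs against cisplatin. Leaving out 1 library gave -0.36 to 0.050 for Cd8a to Cd3e and -0.43 to 0.026 for Cd3e to Cd79a in those comparisons. Within the vehicle and KW6002 groups r was 0.71 for Cd3e with Cd8a and 0.83 for Cd3e with Cd79a, and within the cisplatin groups it was 0.68 for Cd79a with Ighm and 0.83 for Ptprc with C1qa.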
